A study of Mus musculus with 2 samples.

Results

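The genes described are 10 genes of epithelial cell contacts, Cldn3, Cldn4, Cldn5, Cldn7, Epcam, Cdh1, Ocln, Tjp1, Tjp3 and Spint2, out of 32287 entries in the gene list of the deposited matrices. They were chosen by symbol, each symbol had 1 row, and the question was at what level parathyroid cells hold each gene and which other cells of the gland hold it too, with Cldn5 as an endothelial contrast. The tissue was the parathyroid gland (PTG) grown from mouse embryonic stem cells (ESCs). Every host was Gcm2-/- on a BDF1B6 background, so that it could not form the gland itself, and had been complemented with ESCs that carry a Pth-tdTomato reporter. Replicate 1 came from 3 pooled mice, 9 to 12 weeks old, in which 50 to 70% of blood cells derived from the ESCs, and replicate 2 from 5 pooled mice, 6 to 13 weeks old, in which 60 to 70% did, both with males and females. There was 1 group, with no wild-type gland beside it. Cells other than parathyroid ones could therefore come from the host or from the ESCs. The gene list also holds an entry for Gfp, but barcodes were not split by it here, so these sources were not separated.

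Single cells were isolated by enzyme digestion, sorted to discard doublets, and read with a 3' droplet kit that counts unique molecular identifiers (UMIs), so that each captured transcript is counted once. Replicate 1 had 41517620 UMIs in 1406 barcodes, replicate 2 had 88283761 UMIs in 3518 barcodes, and 3 barcode sequences occurred in both libraries. Barcodes in which Pth, the parathyroid hormone gene, made up at least 5% of UMIs were taken as parathyroid: 660 in replicate 1 and 2237 in replicate 2. Barcodes with Pth under 1% were clustered and named from markers, and "-like" marks such a name. The 5 other classes with at least 20 barcodes in each library were endothelial-like (106 and 270 barcodes), fibroblast-like (231 and 453), macrophage-like (55 and 133), dendritic-cell-like (40 and 43) and T-cell-like (36 and 51). Smaller named clusters, 14 and 22 barcodes with Pth from 1 to under 5% and unnamed clusters entered no test. The dendritic-cell-like cluster was led by Igkc, a B cell gene, and Cd209a. With finer clustering (resolution 2) 30 and 19 barcodes were named dendritic-cell-like and 10 and 25 B-cell-like, so that the dendritic-cell-like values below may cover both kinds of barcode. Gcm2, the gene the hosts lacked, stood at 157 and 159 CPM (UMIs of a gene scaled to a class total, on the usual counts-per-million scale) in parathyroid barcodes and at 0.881 to 4.94 CPM in the other classes. All 6 parathyroid markers checked were detected in parathyroid barcodes.

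As background, epithelial cells seal the space between neighbours with tight junctions. Claudins and occludin (Ocln) are the membrane proteins of these seals, and the ZO proteins (Tjp1 is ZO-1, Tjp3 is ZO-3) are scaffolds that tie them to actin. E-cadherin (Cdh1) holds the adherens junction below, and EpCAM (Epcam) is an epithelial membrane protein that binds claudin-7. Spint2 encodes HAI-2, an inhibitor of membrane serine proteases such as matriptase, which can cleave EpCAM. Cldn5 is known as the main claudin of blood vessel and lymphatic endothelium. Zeb1, Zeb2 and the Snail proteins are known repressors of Cdh1 and other epithelial genes, and bind DNA at E-boxes such as CACCTG.

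The promoters of 4 genes are shown with this E-box in capitals, as a description of sequence. Any role of these repressors at them was not tested. Each is the 250 bases before the start site from RefSeq (GRCm38.p6), 5' to 3' on the strand of the gene, and capitals mark CACCTG or its reverse complement CAGGTG. Epcam and Spint2 are the members with the most UMIs in parathyroid barcodes, Cldn4 is the least abundant epithelial claudin of the set, and Cldn5 is the endothelial one. The windows are chr17:87635729-87635978 (+) for Epcam, chr7:29281978-29282227 (-) for Spint2, chr5:134946935-134947184 (-) for Cldn4 and chr16:18776597-18776846 (+) for Cldn5.
Epcam: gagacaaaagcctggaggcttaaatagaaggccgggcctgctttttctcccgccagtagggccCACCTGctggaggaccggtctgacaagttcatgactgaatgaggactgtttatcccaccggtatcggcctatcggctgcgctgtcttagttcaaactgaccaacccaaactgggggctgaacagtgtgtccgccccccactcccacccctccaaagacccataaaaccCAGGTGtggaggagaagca
Spint2: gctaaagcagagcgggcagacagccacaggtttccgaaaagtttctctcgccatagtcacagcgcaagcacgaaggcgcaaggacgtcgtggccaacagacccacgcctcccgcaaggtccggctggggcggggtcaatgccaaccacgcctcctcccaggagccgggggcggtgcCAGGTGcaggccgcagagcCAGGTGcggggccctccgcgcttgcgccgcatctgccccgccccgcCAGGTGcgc
Cldn4: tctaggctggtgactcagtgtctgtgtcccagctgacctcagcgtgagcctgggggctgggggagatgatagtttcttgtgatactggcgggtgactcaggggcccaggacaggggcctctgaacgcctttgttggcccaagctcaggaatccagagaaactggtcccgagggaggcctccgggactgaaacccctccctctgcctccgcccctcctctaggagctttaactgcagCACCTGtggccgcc
Cldn5: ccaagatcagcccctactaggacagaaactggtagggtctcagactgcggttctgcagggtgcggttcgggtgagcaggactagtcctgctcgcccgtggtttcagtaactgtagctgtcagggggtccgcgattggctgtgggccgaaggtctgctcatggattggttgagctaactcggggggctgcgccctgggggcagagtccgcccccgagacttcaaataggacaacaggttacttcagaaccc
The Epcam promoter held 2 such E-boxes, that of Spint2 held 3, that of Cldn4 held 1 and that of Cldn5 held 0. RefSeq promoters were matched for 9 of the 10 members, with 12 start sites in all, and Cdh1 was not matched. CACCTG on either strand occurred at 1 or more start sites of 6 of these 9 genes (Cldn4, Cldn7, Epcam, Ocln, Tjp3 and Spint2), against 19.4% of 27025 genes in the same table. A GC box, GGGCGG, occurred in 8 of the 9 genes, against 35.4% of genes. The grainyhead-type motif AACCGGTT and the TATA box TATAAA occurred in 0 of the 9, against 0.137% and 14.3% of genes. All 4 motifs were searched on both strands, and none contains another. A match describes the letters in this window and is not a binding site.

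Epcam (ENSMUSG00000045394, chromosome 17, 87635979 to 87651129, plus strand, GRCm38) was the member with the most UMIs in parathyroid barcodes. It stood at 959 CPM in replicate 1 and 1111 CPM in replicate 2, against 6.17 and 11.8 CPM in endothelial-like, 4.44 and 7.86 CPM in fibroblast-like, 16.7 and 13.3 CPM in macrophage-like, 33.4 and 70.4 CPM in dendritic-cell-like and 16.2 and 35.2 CPM in T-cell-like barcodes. Both parathyroid values lay above every other class, and the classes below overlapped with their neighbours except that macrophage-like lay above endothelial-like barcodes. An Epcam UMI was found in 99.7% of parathyroid barcodes in each library, at medians of 37729.5 and 30583 UMIs, against 8.66% and 11.3% of fibroblast-like barcodes at medians of 21691 and 19680 UMIs. Parathyroid barcodes held 99.4% and 99.7% of all Epcam UMIs in kept barcodes.

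Cdh1 (chromosome 8, 106603351 to 106670246, plus strand) was likewise highest in parathyroid barcodes among the 6 classes compared. Its level was 118 and 107 CPM in parathyroid barcodes, 20.0 and 21.0 CPM in dendritic-cell-like barcodes, and 0 to 2.36 CPM in the other 4 classes. A UMI of Cdh1 was found in 91.7% and 88.5% of parathyroid barcodes, and in 43.0% and 38.3% when each barcode was thinned to 5000 UMIs. Thinning left out 16 and 34 shallower parathyroid barcodes, 6 and 22 endothelial-like, 5 and 10 fibroblast-like, 3 and 2 macrophage-like, 5 and 1 dendritic-cell-like and 0 T-cell-like ones.

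Among the claudins, Cldn7 (chromosome 11, 69964779 to 69967885, plus strand) had 219 and 180 CPM in parathyroid barcodes and 0.606 to 4.0 CPM in the other 5 classes. Cldn3 (chromosome 5, 134986214 to 134987472, plus strand) had 52.9 and 50.1 CPM in parathyroid barcodes. Elsewhere it had 0 to 1.05 CPM, with 0 UMIs in all dendritic-cell-like and T-cell-like barcodes. Both claudins thus had each of their parathyroid values far above every value of another class.

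Cldn4 (chromosome 5, 134945119 to 134946934, minus strand) lies 39279 bases from Cldn3. It had only 3.20 and 2.27 CPM in parathyroid barcodes, from 97 and 162 UMIs, and 11.1% and 5.95% of these barcodes had a UMI. In the other 5 classes 2 Cldn4 UMIs were found in all, 1 in each library of the fibroblast-like class. Against 3 counts over a class, the parathyroid level was at least 2.76-fold higher than in endothelial-like barcodes and at least 2.72-fold higher than in macrophage-like barcodes, and at least 1.32-fold higher than in dendritic-cell-like barcodes. The T-cell-like class was too shallow for such a limit. Cldn4 did not pass the filter on low counts and was not in the test across genes.

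Ocln (chromosome 13, 100496507 to 100552718, minus strand) had 17.3 and 13.6 CPM in parathyroid barcodes. In macrophage-like barcodes it had 3.14 and 4.0 CPM, in dendritic-cell-like barcodes 6.67 and 0 CPM, and in the other 3 classes 0 to 2.20 CPM. The parathyroid values lay above all of these, from 524 and 971 UMIs. The 14 and 22 barcodes with Pth from 1 to under 5%, which were in no test, had 26.7 and 24.0 CPM of Ocln, from 8 UMIs in all.

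Spint2 (chromosome 7, 29256323 to 29281912, minus strand) had 304 and 314 CPM in parathyroid barcodes. The class next in order was T-cell-like, with 55.5 and 72.6 CPM, followed by dendritic-cell-like, with 24.0 and 24.7 CPM. Endothelial-like, fibroblast-like and macrophage-like barcodes had 3.14 to 11.5 CPM. After thinning to 5000 UMIs, 75.2% and 79.8% of parathyroid barcodes had a Spint2 UMI, against 16.7% and 27.5% of T-cell-like barcodes and 1.00% and 5.65% of endothelial-like barcodes.

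**Figure D1:**
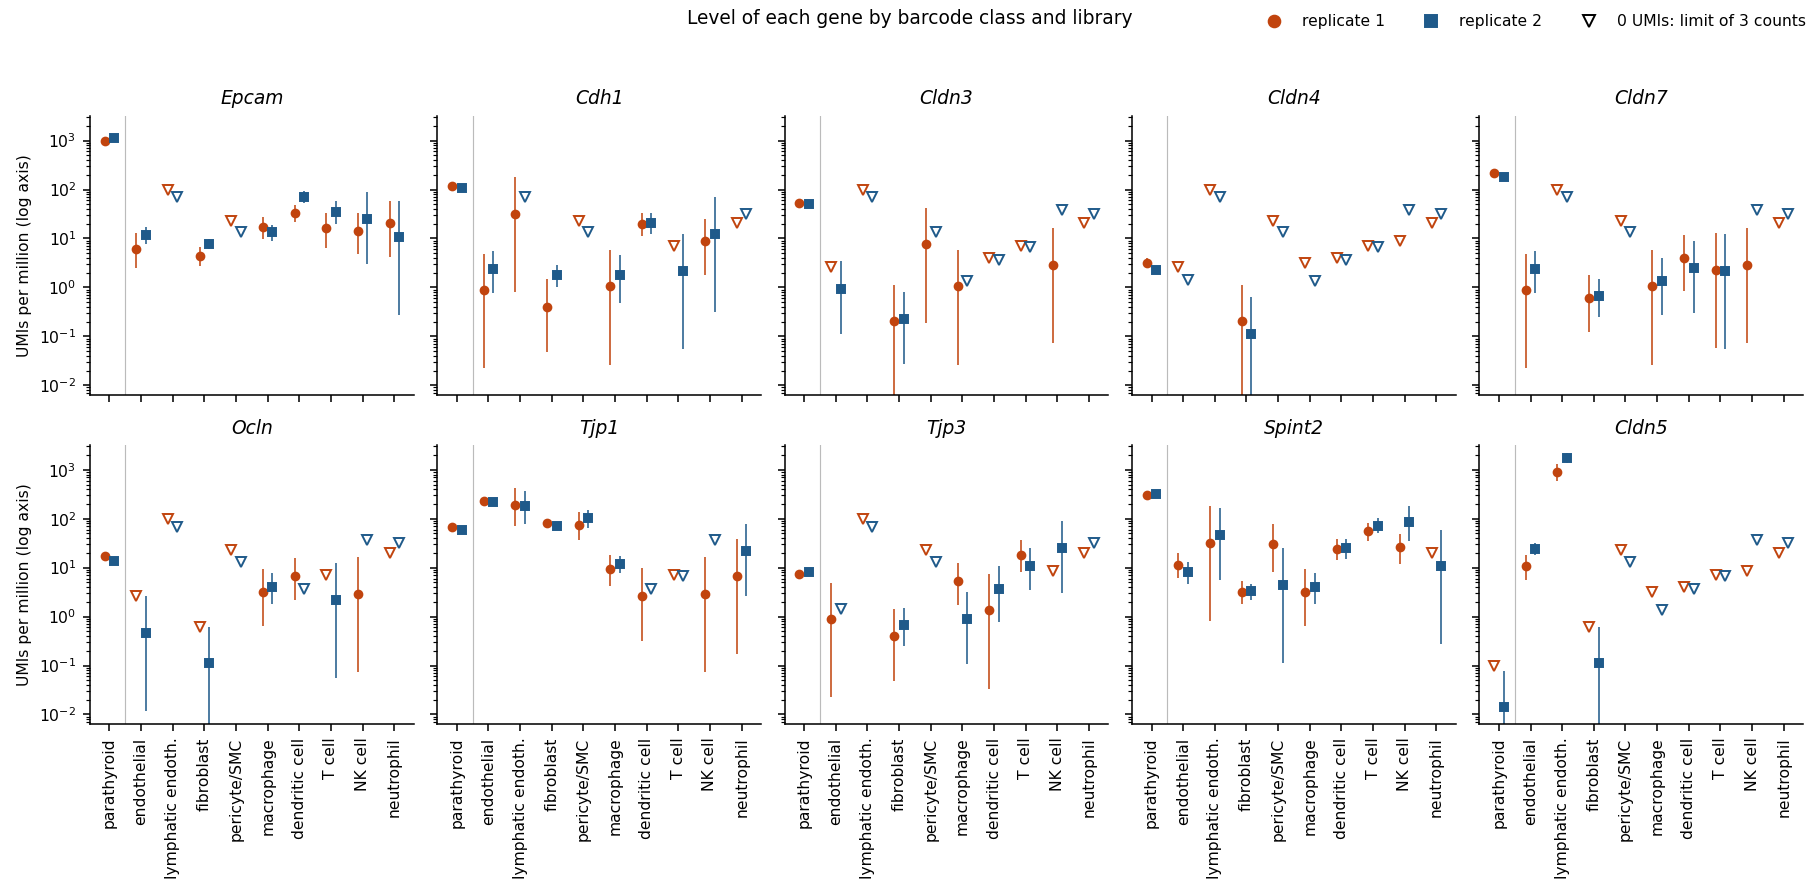
Level of each of the 10 genes in CPM (log axis) by barcode class, parathyroid first, with 1 point per library, exact 95% Poisson intervals for counting error and open triangles at the limit of 3 counts where no UMI was found. Among the 6 classes compared, Epcam, Cdh1, Cldn3, Cldn7, Ocln and Spint2 are highest in parathyroid barcodes and Tjp1 in endothelial-like barcodes, and Cldn5 reaches 901 and 1743 CPM in lymphatic-endothelial-like ones. Intervals that run below the axis are cut by it.

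The scaffold genes were shared with other cells. Tjp1 (chromosome 7, 65296165 to 65527781, minus strand) had 67.1 and 59.4 CPM in parathyroid barcodes, against 234 and 225 CPM in endothelial-like and 79.97 and 70.6 CPM in fibroblast-like barcodes. Macrophage-like barcodes had 9.42 and 12.0 CPM, dendritic-cell-like barcodes 2.67 and 0 CPM, and T-cell-like barcodes 0 UMIs. The order was thus endothelial-like, fibroblast-like, parathyroid and macrophage-like, with no overlap between libraries, and small pericyte-like (75.3 and 102 CPM) and lymphatic-endothelial-like classes (193 and 183 CPM) also lay above the parathyroid values. Thinned to 5000 UMIs, 23.6% and 24.9% of parathyroid barcodes had a Tjp1 UMI, against 57.0% and 58.5% of endothelial-like and 26.1% and 28.4% of fibroblast-like barcodes. Without thinning the shares were 80.9% and 75.7% of parathyroid, 80.2% and 73.0% of endothelial-like and 68.0% and 65.3% of fibroblast-like barcodes.

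Tjp3 (chromosome 10, 81273207 to 81291581, minus strand) had 7.46 and 8.0 CPM in parathyroid barcodes, from 226 and 572 UMIs. T-cell-like barcodes had 18.5 and 11 CPM, from 13 UMIs in 12 of 87 barcodes. Macrophage-like barcodes had 5.23 and 0.889 CPM and dendritic-cell-like barcodes 1.33 and 3.71 CPM, while endothelial-like and fibroblast-like barcodes had 0 to 0.881 CPM. Both T-cell-like values lay above the parathyroid ones, on few UMIs.

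The members were compared class by class with edgeR on UMI counts summed per library and class, with the library as a block. The p-values were adjusted over all 13302 genes tested. The block takes out any shift of a gene that all classes of a library share. The p-values therefore rest on the spread left among the 12 class sums after class and library were fitted (5 residual degrees of freedom). edgeR draws this spread for each gene towards a trend over the tested genes. The p-values thus borrow from other genes and do not rest on a gene's own 5 degrees of freedom alone. The 12 class sums come from only 2 pools of mice. Of the 10 members, 9 were tested. Against endothelial-like barcodes 7 members were called higher and 2 lower at an adjusted p under 0.05, where 29.3% of eligible genes were called higher and 24.4% lower. Against fibroblast-like barcodes 7 were higher and 0 lower (30% and 29.0% of eligible genes). Against macrophage-like barcodes 8 were higher and 0 lower (31.7% and 26.3%). Against dendritic-cell-like barcodes 7 were higher and 0 lower (32.5% and 21.6%), and against T-cell-like barcodes 7 were higher and 0 lower (29.1% and 16.3%). A gene entered the test if it had enough counts in 1 class, so that members high in parathyroid barcodes entered through that class. No count over the tested members is therefore used as support.

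Epcam, Cdh1, Cldn3, Cldn7, Ocln and Spint2 were higher in parathyroid barcodes in all 5 class comparisons. The SE given with edgeR values is the log2 fold change, without its sign, divided by the square root of the F statistic of the test. For Epcam the log2 fold change ran from 4.37 (SE 0.28, adjusted p 3.84e-08) over dendritic-cell-like to 7.50 (SE 0.31, adjusted p 2.43e-09) over fibroblast-like barcodes. Cldn7 ranged from 5.95 (SE 0.33) over dendritic-cell-like to 8.29 (SE 0.28) over fibroblast-like barcodes. Cdh1 was 2.46 (SE 0.32, adjusted p 3.14e-05) over dendritic-cell-like barcodes and 6.11 to 7.0 over the other classes. Cldn3 was 6.6 (SE 0.54) over endothelial-like, 7.21 over macrophage-like and 7.88 over fibroblast-like barcodes. Where its class had no UMI, Cldn3 was at least 26.5-fold higher than in dendritic-cell-like and at least 15.0-fold higher than in T-cell-like barcodes, against 3 counts over the class.

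Spint2 was 2.64 (SE 0.21, adjusted p 5.57e-07) over T-cell-like, 3.66 (SE 0.23) over dendritic-cell-like and 5.30 to 6.65 over the other classes. Ocln had its smallest differences over macrophage-like barcodes, 1.90 (SE 0.54, adjusted p 0.00871), and over dendritic-cell-like barcodes, 2.26 (SE 0.70, adjusted p 0.0152). The values in immune cells rest on few UMIs, 12 of Ocln in macrophage-like and 57 of Spint2 in T-cell-like barcodes.

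Tjp1 was lower in parathyroid than in endothelial-like barcodes, with a log2 fold change of -1.61 (SE 0.19, adjusted p 2.19e-05). Against fibroblast-like barcodes its log2 fold change was -0.17 (SE 0.19, adjusted p 0.476). It was higher than in macrophage-like (2.40, SE 0.27) and dendritic-cell-like barcodes (5.6, SE 0.51), and at least 18.2-fold higher than in T-cell-like barcodes, which had no Tjp1 UMI. Tjp3 was higher than in endothelial-like (4.82, SE 0.99, adjusted p 0.00110) and fibroblast-like barcodes (3.79, SE 0.58, adjusted p 9.12e-05), and past the threshold against macrophage-like barcodes only narrowly (1.65, SE 0.66, adjusted p 0.0474). That last call was lost with other size factors (adjusted p 0.0643) and without the library block (adjusted p 0.0556). Its differences from dendritic-cell-like (1.59, SE 0.80, adjusted p 0.111) and T-cell-like barcodes (-0.54, SE 0.60, adjusted p 0.514) did not pass.

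**Figure D2:**
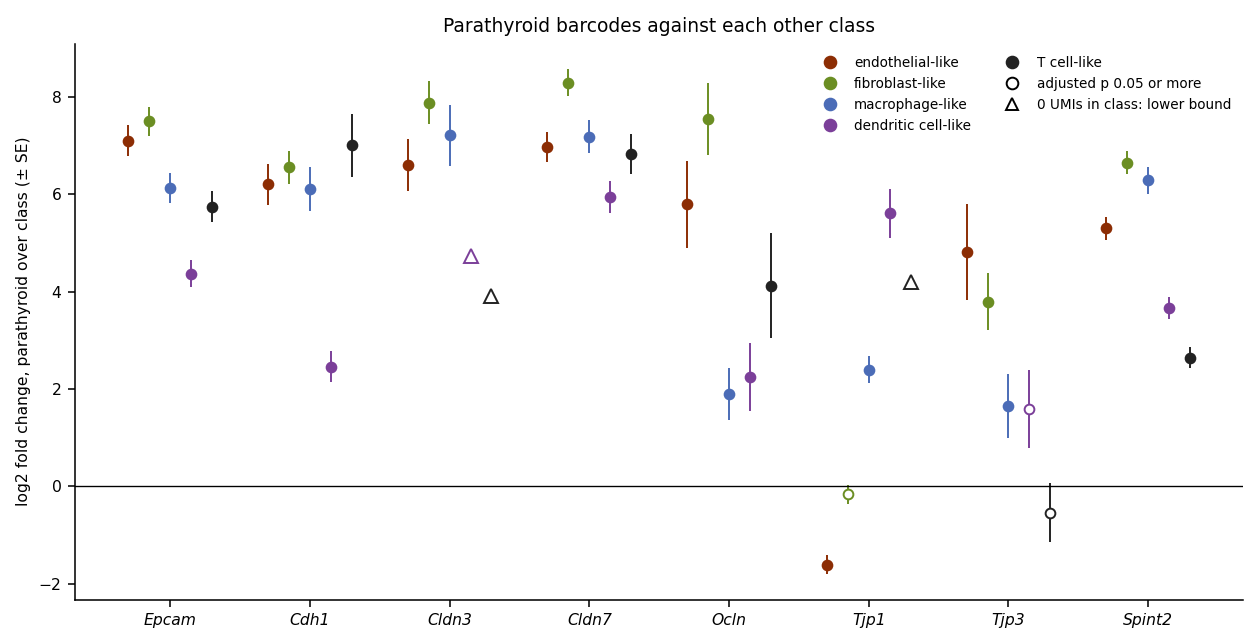
Log2 fold change of parathyroid barcodes over each of 5 other classes (± SE, 12 class sums from 2 libraries) for 8 genes, with open circles where the adjusted p was 0.05 or more and triangles where the class had 0 UMIs and the value is a lower bound. The SE is derived from the F statistic of the test. Tjp1 is below 0 against endothelial-like barcodes, at -1.61, and Cdh1 is smallest against dendritic-cell-like barcodes, at 2.46.

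Against the unweighted mean of the 5 classes on the log scale, 8 members were higher and 0 lower, where 38.4% of eligible genes were called higher and 19.5% lower. Cldn5 was not called (log2 fold change -1.87, SE 32.8). It had 0 UMIs in macrophage-like, dendritic-cell-like and T-cell-like barcodes, so its contrast is poorly determined and is not read. For Tjp1 the call as higher does not describe its level. Tjp1 averaged 63.3 ± 5.47 CPM in parathyroid barcodes and 63.4 ± 2.70 CPM over the 5 classes (SD, n = 2 libraries), and its log2 fold change of 3.72 rests on classes at or near 0. With all other named barcodes as 1 class the value was -0.047 (SE 0.11, adjusted p 0.711).

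Low counts of the members outside parathyroid barcodes were set against Pth, the most abundant parathyroid transcript, which made up 0.118% to 0.198% of UMIs in the 5 classes. The ratio given is the observed UMIs of a gene in a class over those that would be there if each came with Pth UMIs as in parathyroid barcodes of the same library. It is 1 where a gene keeps its parathyroid ratio to Pth, and intervals (95%, exact Poisson) cover counting error only. The 5 classes were chosen by Pth under 1% of UMIs, and Pth is the denominator, so that choice can raise the ratio. By how much was not tested, and values above 1 are a description. For Epcam the ratio was 0.743 (0.508 to 1.05) in endothelial-like, 0.752 (0.606 to 0.922) in fibroblast-like and 1.16 (0.847 to 1.54) in macrophage-like barcodes. Cldn7 was at 0.401 to 1.81 in the 5 classes, with intervals that held 1 in all but the fibroblast-like class. In endothelial-like, fibroblast-like and macrophage-like barcodes both genes thus had intervals that held 1 or, in the fibroblast-like class, lay below it. The source of these UMIs was not tested.

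In dendritic-cell-like barcodes several members exceeded this ratio. Cdh1 was at 20.6 times (14.1 to 29.0), from 32 UMIs in 11 of 83 barcodes, Spint2 at 8.92 times (6.31 to 12.2), from 38 UMIs in 27 barcodes, and Epcam at 5.75 times (4.57 to 7.14), from 82 UMIs in 21 barcodes. The highest barcode for each gene held 11 of the Cdh1 and 18 of the Epcam UMIs, and without it the pooled levels were 13.7 CPM for Cdh1 and 41.8 CPM for Epcam. These counts were in replicate 1, whose levels without them were 5.55 CPM for Cdh1 and 9.71 CPM for Epcam, so that the values of that library rest on 1 barcode each. Both genes are known in Langerhans cells, the dendritic cells of skin. Ocln exceeded the ratio in macrophage-like (21.9, 11.3 to 38.2) and dendritic-cell-like barcodes (23.4, 7.59 to 54.5), on 12 and 5 UMIs, and Tjp3 did so on 7 and 4 UMIs.

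In T-cell-like barcodes Spint2 was at 17.2 times the Pth ratio (13.0 to 22.3), with 57 UMIs in 40 of 87 barcodes, and Tjp3 at 156 times (83.3 to 268). Epcam was at 2.06 times (1.31 to 3.10). Tjp1 was at 294 times (273 to 316) in endothelial-like, 142 times (134 to 151) in fibroblast-like and 15.6 times (10.9 to 21.6) in macrophage-like barcodes. Its 743 endothelial-like UMIs were spread over 282 of 376 barcodes.

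**Figure D3:**
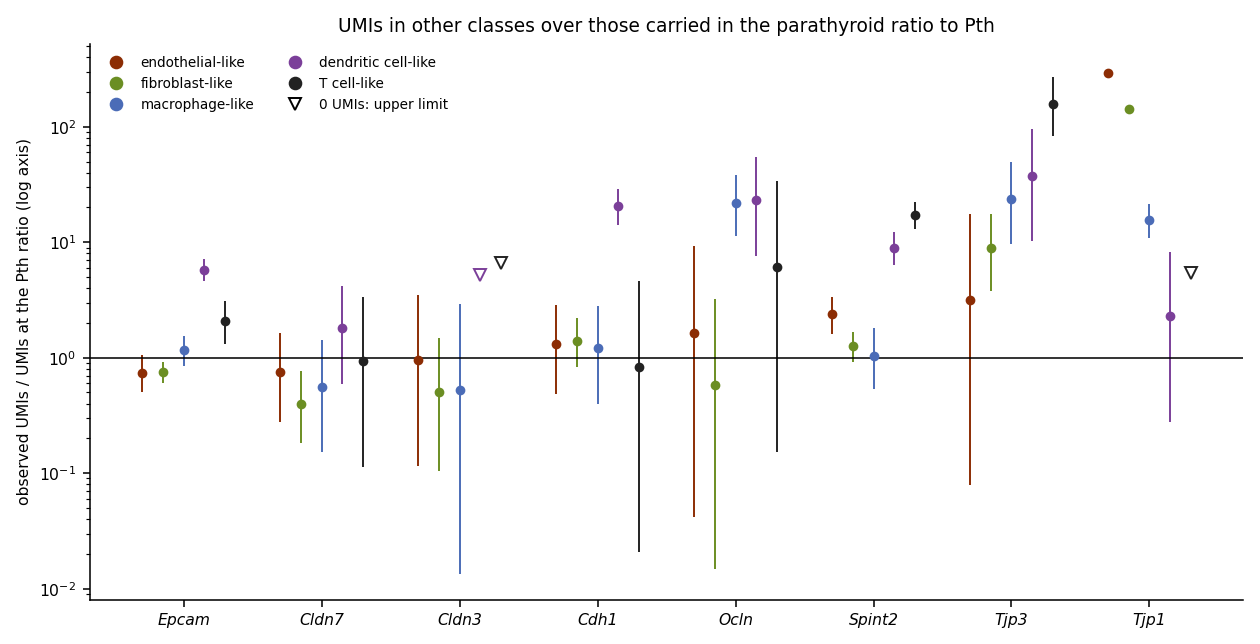
Observed UMIs of 8 genes in each of 5 classes over the UMIs expected at the parathyroid ratio to Pth (log axis, exact 95% Poisson intervals, triangles for upper limits where 0 UMIs were found). In fibroblast-like barcodes Epcam is at 0.752, Cldn7 at 0.401 and Cldn3 at 0.507, Cdh1 stands at 20.6 in dendritic-cell-like barcodes, and Tjp1 at 294 in endothelial-like ones. The classes were chosen by low Pth, the denominator, which can raise these values.

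Cldn5 (chromosome 16, 18776847 to 18778262, plus strand), the endothelial claudin, was nearly absent from parathyroid barcodes: 0 UMIs in 660 barcodes of replicate 1, for which 3 counts allow a share of barcodes with a UMI of up to 0.455% and the exact 95% interval ends at 0.557%, and 1 UMI in 2237 barcodes of replicate 2. These are 0 and 0.0140 CPM in parathyroid barcodes, against 10.6 and 24.5 CPM in endothelial-like barcodes (log2 fold change -9.63, SE 0.89, adjusted p 8.88e-06). It did not mark the endothelial-like class as a whole, however. Of 106 endothelial-like barcodes in replicate 1 only 1 had a Cldn5 UMI (0.943%, exact 95% interval 0.0239% to 5.14%), and 7 of 270 had one in replicate 2 (2.59%, 1.05% to 5.27%). The 8 endothelial markers, from which that class was named, were all detected in it and summed to 14386 and 15888 CPM.

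The 64 endothelial-like Cldn5 UMIs lay in few barcodes. In replicate 1 all 12 UMIs were in 1 barcode, and in replicate 2 the highest barcodes held 32, 12 and 4 of the 52 UMIs. Without the highest barcode the pooled level of Cldn5 in the class was 9.85 CPM, against 19.6 CPM with it. By contrast all 8 barcodes of the lymphatic-endothelial-like cluster (3 in replicate 1 and 5 in replicate 2) had Cldn5 UMIs, 3 to 25 each with a median of 11.5. The level there was 901 and 1743 CPM, and claudins were kept out of the clustering. These 8 barcodes had 29 to 428 UMIs of the 5 lymphatic markers, while the 8 endothelial-like barcodes with Cldn5 had 0 to 2. The cluster was named from these same markers, so this difference in marker UMIs is not a separate result. The lymphatic-endothelial-like class was too small for a test.

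**Figure D4:**
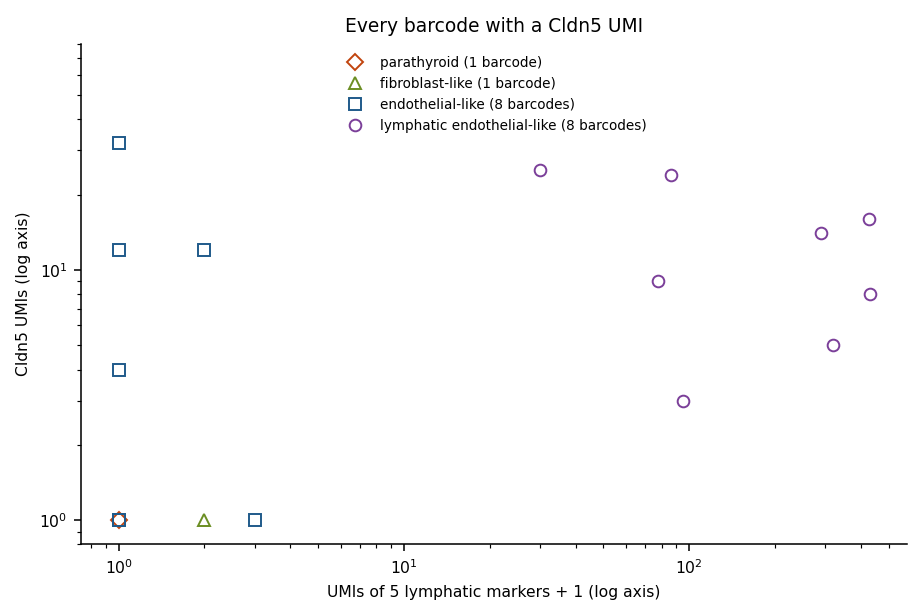
Cldn5 UMIs (log axis) against UMIs of 5 lymphatic markers plus 1 (log axis) in every barcode with a Cldn5 UMI, by class. The 8 lymphatic-endothelial-like barcodes lie to the right, at 29 to 428 marker UMIs, and the 8 endothelial-like ones to the left, at 0 to 2. The lymphatic-endothelial-like cluster was named from these 5 markers, so the split along that axis is not a separate result.

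Single parathyroid barcodes carried several of the 9 epithelial members at once. The median was 6 of 9 members with a UMI in each library, and 3 of 9 after thinning to 5000 UMIs. Thinned, 79.0% and 79.2% of parathyroid barcodes had at least 3 members, against at most 2.86% of barcodes in any library of the 5 other classes. The variance of thinned UMIs over their mean was 1.24 and 1.18 for Epcam and 1.20 and 1.18 for Cdh1, and Epcam averaged 4.84 and 5.64 thinned UMIs. The other members averaged at most 1.61 thinned UMIs, where this ratio says little about the spread. Correlations between members across thinned parathyroid barcodes were -0.07 to 0.07, over 644 and 2203 barcodes that share library and depth. Counting error at such low counts pulls r towards 0, so these values say little about whether members vary together.

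Within parathyroid barcodes some members varied with the share of Pth in the same direction in both libraries, and others did not. Within each library barcodes were ranked by Pth share and split into 3 bins of equal size, low, middle and high, and levels are CPM of the UMIs other than Pth. Cdh1 had 160 (151 to 169), 130 (123 to 137) and 124 (116 to 132) in the low, middle and high bins of replicate 1 and 136 (131 to 141), 129 (124 to 134) and 116 (111 to 121) in those of replicate 2. Tjp1 had 87.3, 76.2 and 71.2 in replicate 1 and 79.7, 71.4 and 59.7 in replicate 2. Ocln had 23.8, 19.8 and 16.6 in replicate 1 and 17.0, 16.8 and 14.5 in replicate 2. All of these were lowest in the high bin.

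The opposite order was seen for Spint2, with 331, 354 and 382 in replicate 1 and 342, 374 and 404 in replicate 2. Epcam had 1047, 1146 and 1162 in replicate 1 and 1288, 1328 and 1347.5 in replicate 2. Cldn7 had 240, 261 and 266 in replicate 1 and 204, 220 and 220 in replicate 2. For both genes the intervals of the middle and high bins overlapped in each library. Cldn3 had 60.0, 60.9 and 64.8 in replicate 1 and 55.3, 61.1 and 62.3 in replicate 2. Tjp3 and Cldn4 shared no order between the libraries. Tjp3 had 7.51, 9.37 and 9.14 in replicate 1 and 10.2, 9.20 and 9.04 in replicate 2. Cldn4 had 4.17, 2.72 and 4.57 in replicate 1 and 3.00, 2.87 and 2.17 in replicate 2. These values are a description, since barcodes are not replicates of a condition. Median depth (36554 to 38736 UMIs in replicate 1, 30285 to 31012 in replicate 2) and median mitochondrial share (3.27% to 3.51%) moved little between bins. The median number of genes per barcode was lowest in the high bin of each library. It was 6258, 6346.5 and 5949 in the low, middle and high bins of replicate 1 and 5840.5, 5672.5 and 5475 in those of replicate 2. Markers of other cell types summed to 469 CPM in the low bin of replicate 2, against 96.5 and 101 CPM in its middle and high bins. In replicate 1 that sum was 84.0 CPM in the low bin and 143 CPM in the high bin, and Cdh1 was also lowest in the high bin there. The part of those markers in the replicate 2 values was not tested.

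**Figure D5:**
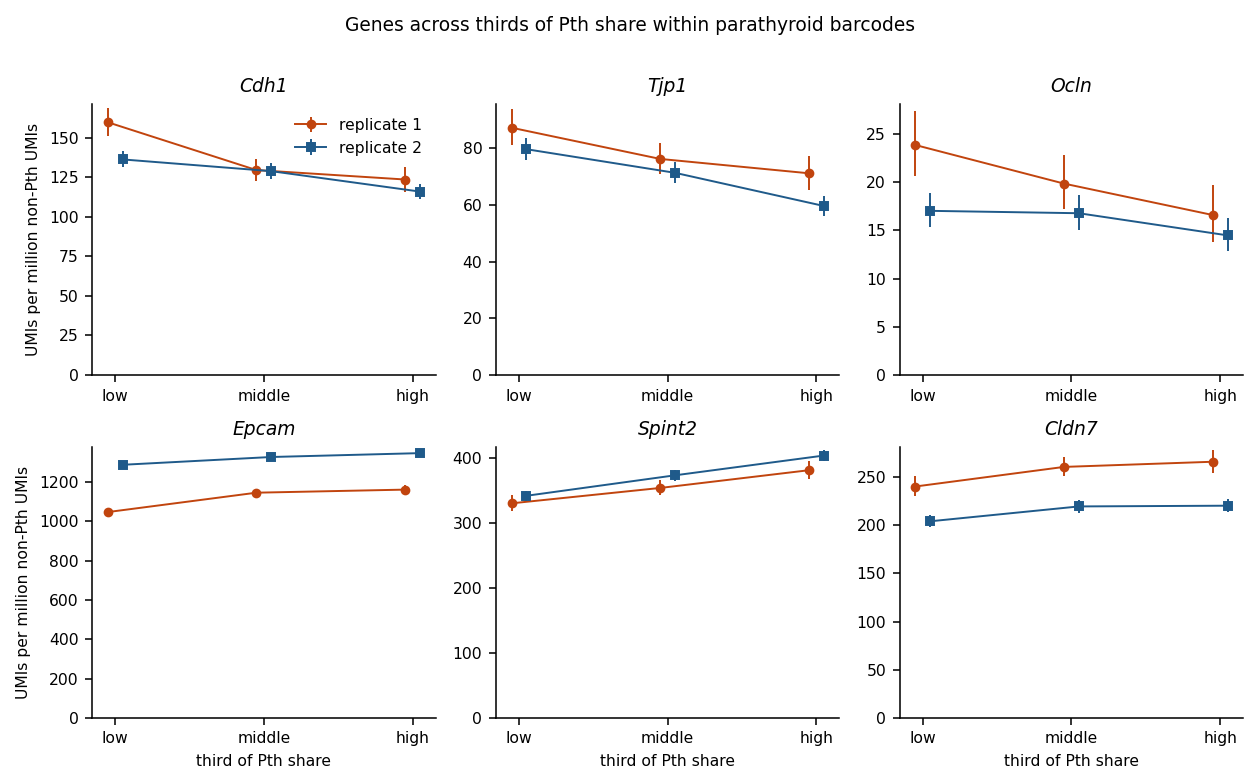
Level (CPM of UMIs other than Pth) of 6 genes in the low, middle and high bins of Pth share within parathyroid barcodes of each library (exact 95% Poisson intervals, counting error only). Cdh1, Tjp1 and Ocln are lowest in the high bin in both libraries, and Epcam, Spint2 and Cldn7 are highest there.

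Barcodes near the limits of the Pth rule also held Epcam and Cdh1. Those with 5 to under 10% Pth (34 and 55) had 964 and 981 CPM of Epcam and 196 and 122 CPM of Cdh1. The 14 and 22 barcodes with 1 to under 5% Pth had 440 and 312 CPM of Epcam and 93.3 and 84.0 CPM of Cdh1, and those with 0.5 to under 1% Pth (13 and 25) had 313 and 41.9 CPM of Epcam and 203 and 62.8 CPM of Cdh1. The barcodes below 5% were shallow, with medians of 3892 to 9330 UMIs. Barcodes with 0.5 to under 1% Pth overlap with an unnamed cluster led by Erbb4 that is described below. Pth was 0.764% and 0.571% of the UMIs in that cluster, and the shared barcodes were not counted.

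Between replicates some members changed more in parathyroid barcodes than most genes did, and others changed less. The log2 ratio of replicate 2 over replicate 1 was largest for Cldn4 (-0.50), Ocln (-0.35) and Cldn7 (-0.28) and smallest for Spint2 (0.04). The median absolute log2 ratio of 9847 genes with at least 5 CPM in both was 0.14. Of these genes 95.2% changed less than Cldn4, which itself lay below 5 CPM. The share was 87.3% for Ocln, 79.9% for Cldn7 and 16.3% for Spint2. The Cldn4 change rests on 97 and 162 UMIs. Its exact 95% Poisson intervals, 2.60 to 3.91 CPM in replicate 1 and 1.93 to 2.64 CPM in replicate 2, overlapped. With 1 library a side there was no test.

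Lists of other junction genes were read from the same fit. Against the mean of the other classes 38.4% of eligible genes were called higher and 19.5% lower, and a gene could enter the test through the class where it was high. This contrast averages logs, so that a gene called higher can be lower in mean CPM. F11r, chosen after its values were seen, was called higher with 51.1 ± 9.01 CPM in parathyroid barcodes and 56.0 ± 1.37 CPM in the other classes (SD, n = 2 libraries).

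Of 30 further claudin-named genes in the files, 8 were tested, and 4 were called higher and 0 lower against the mean of the other classes, with a median log2 fold change of 2.14, against 0.25 over all eligible genes (0.90 with genes that had no UMI in a class set at their limit of 3 counts), beside 38.4% and 19.5% of eligible genes. The counts were 3 higher and 2 lower against endothelial-like and 3 and 3 against fibroblast-like barcodes. The fourth called claudin, Cldn12, had 9.26 CPM in parathyroid, 17.7 CPM in endothelial-like and 16.6 CPM in fibroblast-like barcodes, and was named after its values were seen. Cldn8, a kidney-tubule claudin, had 44.3 ± 0.452 CPM in parathyroid barcodes and 0.505 ± 0.280 CPM in the other classes (SD, n = 2 libraries). Cldn6, a claudin of embryonic epithelia, had 39.1 ± 2.07 CPM and 0.678 ± 0.595 CPM, and Cldn9 had 15.9 ± 2.76 CPM and 0.235 ± 0.269 CPM. Parathyroid levels of Cldn6 and Cldn8 thus lay next to that of Cldn3. The adjusted p was 2.94e-09 for Cldn6, 5.59e-09 for Cldn8 and 7.86e-07 for Cldn9. Cldnd1 had 44.2 ± 3.63 CPM in parathyroid and 41.8 ± 1.26 CPM in the other classes (adjusted p 0.122).

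Of 25 tested genes of other tight junction proteins, 17 were higher and 1 lower, beside 38.4% and 19.5% of eligible genes (median log2 fold change 2.52, or 1.53 with limits). Against endothelial-like barcodes 11 were higher and 10 lower, and against fibroblast-like barcodes 11 and 7. Magi2, a scaffold, had 468 ± 23.7 CPM in parathyroid barcodes and 112 ± 4.4 CPM in the other classes, though fibroblast-like barcodes reached 525 CPM. Ybx3, the ZO-1-associated Y-box protein, had 163 ± 21.4 CPM and 109 ± 12.4 CPM (adjusted p 0.000159). Pard3, a polarity scaffold, was called higher on the log scale with 120 ± 19.4 CPM, against 146 ± 5.77 CPM in the other classes, where T-cell-like barcodes had 539 CPM and dendritic-cell-like ones 0. Marveld1 was lower, with 6.39 ± 0.357 CPM and 22.1 ± 2.01 CPM (adjusted p 1.23e-05). Esam, an endothelial adhesion molecule, had 0.502 CPM in parathyroid and 645 CPM in endothelial-like barcodes, and its contrast with the mean did not pass.

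In the adherens junction list 6 of 16 tested genes were higher and 2 lower, a share higher near the 38.4% of eligible genes, with a median of 0.74 that became -0.31 with limits. Against endothelial-like barcodes 3 were higher and 8 lower, and against fibroblast-like barcodes 7 and 6. Vcl (vinculin) had 384 ± 154 CPM in parathyroid barcodes and 136 ± 19.6 CPM in the other classes (adjusted p 6.36e-08). Ctnnd1 (p120-catenin), which stabilises cadherins, had 182 ± 27.0 CPM and 76.6 ± 10.1 CPM, and Afdn (afadin) had 93.5 ± 3.01 CPM and 78.6 ± 9.24 CPM. Lower were Pdlim5, with 46.6 ± 4.86 CPM and 256 ± 63.6 CPM, and Ctnna1 (alpha-catenin), with 78.0 ± 2.64 CPM and 153 ± 1.22 CPM. Cdh5, the endothelial cadherin, had 0.346 CPM in parathyroid and 655 CPM in endothelial-like barcodes and did not pass against the mean.

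Desmosome genes were higher in 7 of 8 tested cases and lower in 0, beside 38.4% and 19.5% of eligible genes (median 7.46, or 3.72 with limits). Against endothelial-like and against fibroblast-like barcodes 7 were higher and 1 lower. Dsg2 (desmoglein-2) had 75.1 ± 2.09 CPM in parathyroid barcodes and 1.86 ± 0.757 CPM in the other classes. Pkp2 (plakophilin-2) had 64.6 ± 1.15 CPM and 2.00 ± 0.216 CPM, and Dsp (desmoplakin) had 28.4 ± 7.58 CPM and 0.432 ± 0.554 CPM. Pkp4 had 27.1 ± 1.68 CPM and 94.0 ± 13.1 CPM and did not pass (adjusted p 0.142).

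Of 3 tested gap junction genes 1 was higher and 0 lower, a share near the 38.4% of eligible genes (median 1.09, or -3.61 with limits). Against endothelial-like and against fibroblast-like barcodes 0 were higher and 2 lower. Gja1 (connexin 43) had 219 ± 43.8 CPM in parathyroid barcodes and 104 ± 15.7 CPM in the other classes, while fibroblast-like barcodes had 308 CPM. Gjc1 had 0.637 CPM in parathyroid and 71.3 CPM in endothelial-like barcodes and did not pass against the mean.

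Membrane serine proteases and their inhibitors, the partners of Spint2, were higher in 5 of 8 tested cases and lower in 0, beside 38.4% and 19.5% of eligible genes (median 3.67, or 3.10 with limits). Against fibroblast-like barcodes 5 were higher and 3 lower, against macrophage-like 5 and 2, and against dendritic-cell-like 4 and 2. Hpn (hepsin) had 41.2 ± 1.24 CPM in parathyroid barcodes and 3.79 ± 0.854 CPM in the other classes. Spint1 (HAI-1) had 37.1 ± 2.11 CPM and 6.86 ± 2.52 CPM, and Tmprss2 had 16.9 ± 1.53 CPM and 1.47 ± 0.276 CPM. The other 2 called genes, named after their values were seen, were St14 (matriptase), with 15.4 ± 2.72 CPM and 2.49 ± 1.35 CPM, and Prss8 (prostasin), with 9.81 ± 0.834 CPM and 0.0404 ± 0.0571 CPM. Hgf, a growth factor activated by such proteases, had 0.0864 CPM in parathyroid and 43.4 CPM in fibroblast-like barcodes and did not pass.

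Among transcription and splicing factors of epithelial cells and their repressors, 4 of 10 tested genes were higher and 3 lower, near the 38.4% and 19.5% of eligible genes (median -0.86, or -3.29 with limits). Against fibroblast-like barcodes 2 were higher and 7 lower, and against endothelial-like barcodes 4 and 4. Esrp1, a splicing factor of epithelial cells, had 48.5 ± 5.56 CPM in parathyroid barcodes and 0.418 ± 0.370 CPM in the other classes. Grhl2, a transcription factor of epithelial junction genes, had 45.0 ± 8.96 CPM and 0.597 ± 0.0807 CPM, and Klf5 had 7.27 ± 0.741 CPM and 4.96 ± 0.488 CPM. All 3 were called (adjusted p 4.86e-09, 1.09e-08 and 0.000181). Zeb1 was lower, with 7.78 ± 3.26 CPM and 544 ± 122 CPM (log2 fold change -5.35, adjusted p 7.55e-08), as was Zeb2, with 2.05 ± 1.36 CPM and 461 ± 139 CPM (-5.96, adjusted p 8.58e-07). Snai1 had 0.525 ± 0.0886 CPM and 14.7 ± 3.58 CPM (-2.57, adjusted p 0.0145), and Snai2 had 0.0585 CPM and 10.8 CPM and did not pass. By class, Zeb1 was at 1103 CPM in T-cell-like and 991 CPM in fibroblast-like and Zeb2 at 975 CPM in macrophage-like barcodes.

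The genes most like each member in pattern were sought by Pearson r of log2(CPM + 1) over the 12 class-by-library sums, among 8883 genes, as a description. For Cldn3 they were BB218582 (r 0.989), Klk1b26 and Cryba2, for Cldn4 Efcab1 (0.991), Klk1b26 and Dmrtc1a, and for Cldn7 Rasal1 (0.982), the tdTomato reporter and Dop1b. Epcam was most like Mdh1 (0.975), Cox8a and Ssr4, and Spint2 most like Hook1 (0.965), Tmsb15b1 and Cox7c. Cdh1 was most like Casr (0.947), the calcium-sensing receptor gene of parathyroid cells, then Smdt1 and Rhcg, and Ocln most like Dcxr (0.905), Gprc5c and Atmin. Tjp1 was most like 3 genes that were highest in endothelial-like barcodes, Epn2 (0.989), Mcc and Fbxl7. Tjp3 was most like Vars (0.937), Cpsf6 and Trappc9, and Cldn5 most like Olfr1396 (0.996), Car4 and AU021092.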

How the data were processed

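The authors deposited whole-number UMI counts for each gene in each barcode, made with Cell Ranger 7.0.0 on mm10 per the file headers and the submitters' processing notes. The calling of cell barcodes is not stated in these sources. Per the labels' protocols, doublets were sorted out by flow cytometry. Intervals cover counting error only.

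Barcodes with fewer than 500 genes, 15% or more mitochondrial or 5% or more haemoglobin UMIs, and predicted doublets (23 and 6) were left out, which kept 1240 and 3313. Barcodes with Pth under 1% of UMIs were clustered with scanpy 1.11.5 (2000 variable genes, 30 components, 15 neighbours, Leiden resolution 1) without junction and reporter genes. Clusters were named from 117 markers of 20 types, by a mean log2 marker ratio of 0.5 or more with 3 or more markers each seen in 10% of barcodes, a rule set after the data were seen. Names and values may differ from the study's own.

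CPM are UMI counts scaled here to a class total. Counts were summed for 6 classes in 2 libraries and tested with edgeR 4.0.16 (TMM, filterByExpr, quasi-likelihood test, class plus library block, 5 residual degrees of freedom, Benjamini-Hochberg, adjusted p under 0.05). Of 13302 tested genes, 11651 that were not used for clustering or naming were eligible for background counts. The replicates are separate pools of mice, and classes of a library are paired because they come from the same mice. edgeR was tested on simulated data. DESeq2 1.42.0 was an alternative.

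Members, lists, markers and tests were chosen with earlier results of these data known. Named genes were the members, the 3 genes most like each (at least 20 CPM in 1 class in both libraries), and from each list the 3 called genes of highest CPM each way and the highest uncalled one. Mpp5 stands for Pals1. Positions are from GENCODE vM21 (GRCm38).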

Additional observations from a re-analysis of the deposited data

How the results depend on the processing

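Over 13 alternatives for the comparison with the mean of the other classes, the members called were 8 higher and 0 lower, except with no filter on low counts, where Cldn4 was added (log2 fold change 7.13), and with the others as 1 class, where Cldn5 was called lower (-8.82), Cldn4 higher (5.14), Tjp1 turned to -0.047 and 1 member in all was lower. Genes called lower numbered 2276, but 4900 with the others as 1 class and 3501 with the DESeq2 test; genes called higher were 66.3% of calls, against 52.0% and 51.9%. The median log2 fold change of all eligible genes was 0.25, but 0.67 with no filter on low counts and 0.11 with DESeq2 size factors. Without the replicate block 4143 genes were higher and 2095 lower, and 8 members were called as with the pairing; without the block the one member call lost was Tjp3 against macrophage-like barcodes. With a single library, for which no test is possible, log2 fold changes were 5.18 to 7.49 for Cdh1, 9.59 to 10.3 for Cldn3 and 1.93 to 3.52 for Tjp3. Alternatives for the class comparisons were added after seeing the data. At resolution 2 the dendritic-cell-like class had 30 and 19 barcodes, too few to be fitted, and 10 and 25 barcodes were named B-cell-like. With Pth, Chga and tdTomato left out of the total, Epcam stood at 1366 CPM in parathyroid barcodes, against 1035 CPM. Depth limits Cldn4, Ocln and Tjp3 in the small immune classes.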

Other observations

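Barcodes that kept no name held members at high levels in 2 small clusters. A cluster led by Ccr7, a chemokine receptor of migratory dendritic cells, had 68 Spint2 UMIs in 10 of 16 barcodes, which is 223 CPM, or 205.5 CPM without its highest barcode. Its Epcam count was 1 UMI. A cluster of 14 barcodes led by Erbb4, with medians of 5402 and 3164 UMIs and Pth at 0.764% and 0.571%, had 28 Cdh1 UMIs in 10 barcodes (416 CPM) and 22 Epcam UMIs in 9 barcodes (327 CPM). By library Cdh1 was at 328 and 542 CPM and Ocln at 50.4 and 108 CPM there, above the parathyroid levels of both genes, with 5 Ocln UMIs in all. Cdh1 there was at 78.4 times its parathyroid ratio to Pth (95% Poisson interval 52.1 to 113) and Epcam at 7.0 times (4.38 to 10.6). In the 36 barcodes with Pth between the limits, Cdh1 was at 4.96 times that ratio (3.30 to 7.17) and Epcam at 2.24 times (1.86 to 2.69). Both groups were chosen by a Pth share below that of parathyroid barcodes, and Pth is the denominator of this ratio. Values above 1 can follow from that choice alone and are no result about the genes. Cldn1, chosen after its values were seen, had 1 UMI in all parathyroid barcodes and 19.7 CPM in dendritic-cell-like barcodes.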
